A study of Homo sapiens with 24 samples.

Results

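The comparison described here is irradiation against solvent in p53 null HCT116 cells, with irradiated cells collected 72 hours after exposure. No collection time is given in the sources used here for the solvent libraries or for APR-246 alone. HCT116 is a line of human colorectal carcinoma cells, and the libraries were chosen by their labels: 2 of cells labelled P53 Null that received 6 Gy of irradiation (called Null irradiation) and 2 of P53 Null cells that received the solvent (called Null solvent). These are 4 of the 24 libraries of a study that also holds a wild type (WT) and a Mutant line, each under irradiation, solvent, APR-246 (a compound developed to restore function to mutant p53) and both agents. The Null groups used beside them are APR-246 plus irradiation (20 uM APR-246 before 6 Gy) and APR-246 alone, with 2 libraries each. The growth medium was McCoy 5A, and mRNA selected with oligo(dT) was read in pairs of 100 bases. The labels do not give the alleles or the clone, the solvent is named (as DMSO) only by the deposited files, each p53 status is a single line, and nothing says that replicates were separate cultures, so the p-values speak only of the variation among these libraries. A change of RNA per cell and a change in which cells remained in the dish cannot be told apart in such bulk samples.

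Ionising radiation breaks DNA. In cells with p53 the breaks stabilise this transcription factor, which induces CDKN1A and other genes of arrest and death. Cells without p53 can divide with unrepaired breaks, and DNA that leaks into the cytosol, or RNA made from it, can be read by antiviral sensors that induce interferons and the interferon-stimulated genes. A separate pathway, the integrated stress response, acts through ATF4 and induces amino acid synthesis, transport and tRNA charging.

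The libraries held 57249210 and 56115430 reads after irradiation and 55596724 and 57649847 reads in solvent. Of 10 epithelial markers, KRT8, KRT18 and KRT19 averaged 6476, 1513 and 3759 CPM (reads of a gene scaled to a fixed library total) after irradiation and 5926, 2000 and 3876 CPM in solvent. VIL1 and CDH17 were below 0.3 CPM on average in both groups. The 12 blood cell markers summed to 3.92 to 4.77 CPM after irradiation and 1.41 to 2.07 CPM in solvent, with MS4A1 at 0 reads in all 4 libraries. Fibroblast markers summed to 38.9 to 72 CPM after irradiation and 21.4 to 38.2 CPM in solvent, most of it COL1A1, and LUM had 0 reads. Endothelial markers summed to 24.1 to 25.8 CPM after irradiation and 12.8 to 13.6 CPM in solvent, most of it ESAM. The part of these markers in the results was not tested.

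Libraries of the same group differed in how expression depended on the GC content of genes. The slope of log2 expression on GC percent was -0.0079 and 0.0387 after irradiation and -0.0253 and 0.0343 in solvent, so that the second library of each group leaned to GC-rich genes. A second fit therefore carried this slope as a covariate, and its values are marked "with the GC slope".

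**Figure D1:**
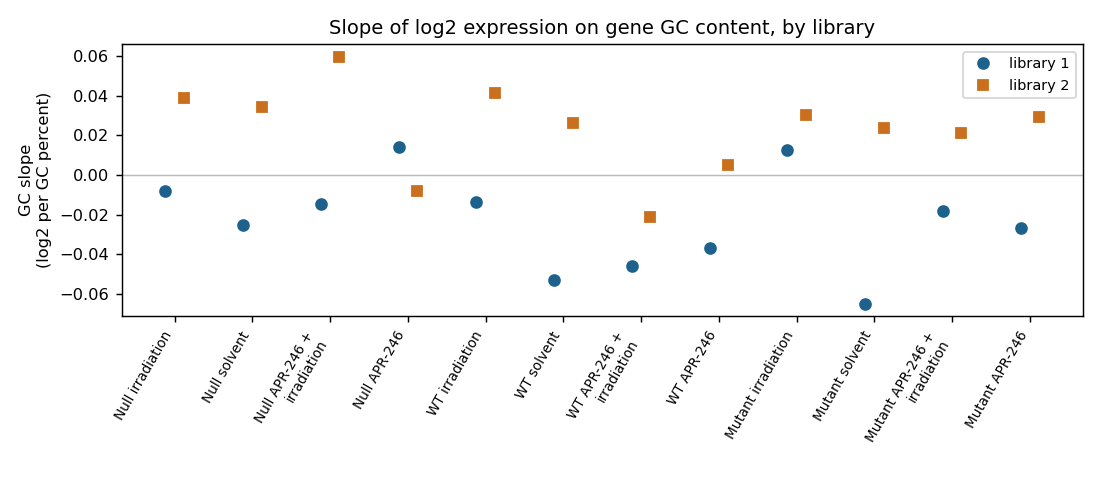
Slope of log2 expression on gene GC content (log2 per GC percent, vertical axis) in each library of the 12 groups, with circles for the first and squares for the second library. In the Null irradiation and Null solvent groups the second library lies above 0 (0.0387 and 0.0343) and the first below it.

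Of 20668 genes tested, 85 were higher and 55 lower after irradiation than in solvent at an adjusted p below 0.05 (limma on log2(CPM + 0.5), Benjamini-Hochberg). That is 0.411% of the genes higher and 0.266% lower. The fit with the GC slope called 1876 genes higher (9.08%) and 2258 lower (10.9%), and all 140 genes of the first fit were called in the same direction. The edgeR test on the read counts behind the CPM values called 47 genes (0.227%), of which 44 were among the 140. Higher genes made up 60.7% of the 140 calls, and 81.1% of the calls made without TMM scaling (159 higher and 37 lower). The median difference over all genes was 0.00 on the log2 scale. List counts given below are to be read beside the shares of all genes in the same fit. These were 0.411% higher and 0.266% lower in the main test, and 9.08% and 10.9% with the GC slope. The calls leaned on each library. Only IFIT1 was called whichever of the 4 libraries was left out. The genes CA2, GAS1 and ENSG00000231977 lost theirs only without Null irradiation library 2, another 6 kept theirs in 1 of the 4 cases, and 130 in none. In the fit with the GC slope 433 of the higher and 639 of the lower genes kept their call in all 4 cases.

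Irradiated Null cells carried more mRNA of the antiviral response. IFIT1, which binds foreign RNA lacking host cap marks, IFIT2 of the same family, and DHX58, a regulator of RNA sensing, rose. So did IFNL2 and IFNL3, interferons of the lambda type that act on epithelial cells. IFIT1 (ENSG00000185745, chromosome 10, 89392546 to 89406486) had 12 and 9.8 CPM after irradiation and 1.65 and 0.850 CPM in solvent. Its log2 difference was 2.63 ± 0.25 (SE; adjusted p = 0.000212). Both irradiated libraries lay far above both solvent libraries, which a call in this test largely fixes. The difference was 2.62 ± 0.20 with the GC slope.

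IFIT2 (chromosome 10, 89283694 to 89309276) had 3.18 and 1.96 CPM after irradiation and 0.612 and 0.382 CPM in solvent, a log2 difference of 1.53 ± 0.33 (adjusted p = 0.0441). DHX58 (chromosome 17, 42101404 to 42112733) had 4.17 and 3.60 CPM after irradiation and 0.971 and 0.659 CPM in solvent (1.65 ± 0.24, adjusted p = 0.0121). The groups did not overlap for either gene, which choosing called genes largely fixes. IFNL3 (chromosome 19, 39243553 to 39245129) had 1.03 and 1.23 CPM after irradiation and 0.144 and 0.0694 CPM in solvent (1.42 ± 0.26, adjusted p = 0.0294). IFNL2 (chromosome 19, 39268514 to 39270092) had 0.751 and 0.535 CPM after irradiation and 0.144 and 0 CPM in solvent (1.01 ± 0.17, adjusted p = 0.0209). IFNL2 and IFNL3 are near-identical neighbours whose reads may be split between them, and at these low levels log2(CPM + 0.5) understates the fold. The 4 calls were each lost when any 1 of the 4 libraries was left out and kept in each of those cases with the GC slope.

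Of 37 tested interferon-stimulated genes 2 rose and 0 fell (IFIT1 and IFIT2), with a median log2 difference of 0.57 against 0.00 over all genes. Without 1 library that median was between 0.43 and 0.71. Including the GC slope, 18 rose and 1 fell, and 11 of the 18 kept that call without each library in turn. Among them were OASL, a relative of the viral RNA sensors of the OAS family, IFI6, ISG15, a ubiquitin-like modifier, and OAS3. OASL (chromosome 12, 121019111 to 121039242) had 33.3 and 43.3 CPM after irradiation and 8.06 and 9.16 CPM in solvent (1.93 ± 0.51, adjusted p = 0.0924, and 1.78 ± 0.17 with the GC slope, adjusted p = 1.93e-06). Of 14 sensors and interferon genes 3 rose, DHX58, IFNL2 and IFNL3, and 0 fell, with a list median of 0.47. Of the 14, 6 rose and 0 fell with the GC slope. RIGI, a sensor of RNA ends, had 7.95 and 4.70 CPM after irradiation and 4.53 and 1.70 CPM in solvent, and rose with the GC slope (1.04 ± 0.19, adjusted p = 0.000628). STING1 and TBK1, of the pathway that senses DNA, were at 0.12 and -0.04 and were called in neither fit. Of 17 antigen presentation genes 0 were called, with a median of 0.36 (0.05 to 0.59 without 1 library). Including the GC slope, 3 rose, against 9.08% of all genes. Among the 3 were B2M, the light chain of MHC class I, and TAPBP, which loads peptide.

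Promoter sequences show an element by which interferon factors of the IRF and STAT families are known to bind. They come from RefSeq (GRCh38.p14), 250 bases before to 50 after each start site. The letters GAAANNGAAA were searched on both strands, with overlapping matches counted. They occur in 24 of the 30 tested interferon-stimulated genes with a listed promoter (80%), in 5 of 11 of the sensor and interferon genes (45.5%), and in 3.78% of the 13006 tested genes with a promoter. Counted by promoter, the share is 3.57% of all 35116. The windows for IFIT1, the gene with the most stable call, and IFNL2 are shown 5′ to 3′ on the strand of the gene. Capitals mark the matches, which in both lie on the opposite strand. IFIT1 is at chr10:89392478-89392557, plus strand, and IFNL2 at chr19:39268185-39268264, plus strand. A listed IFNL3 promoter holds the same 80 bases (chr19:39245382-39245461, minus strand). Another listed IFNL3 promoter (chr19:39244957-39245256, minus strand) holds 0 matches. A match is a description of letters and not evidence of binding.
IFIT1: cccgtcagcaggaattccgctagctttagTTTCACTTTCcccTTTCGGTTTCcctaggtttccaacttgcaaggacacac
IFNL2: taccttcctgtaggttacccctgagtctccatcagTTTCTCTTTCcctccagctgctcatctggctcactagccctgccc

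A further set of genes stood several-fold higher after irradiation, with roles in growth signalling, development and protein folding. BMP4, a secreted morphogen, rose, as did CA2, a carbonic anhydrase, SGK1, a kinase of ion transport, FGFR3, a fibroblast growth factor receptor, and HSPA1B and HSPA1A, the inducible chaperones HSP70. BMP4 (ENSG00000125378, chromosome 14, 53949736 to 53958761) had 152 and 98.4 CPM after irradiation and 24.7 and 18.5 CPM in solvent (2.34 ± 0.40, adjusted p = 0.0231). CA2 (chromosome 8, 85463852 to 85481493) had 31.1 and 19 CPM after irradiation and 5.92 and 2.84 CPM in solvent (2.29 ± 0.27, adjusted p = 0.00285). FGFR3 (chromosome 4, 1793293 to 1808872) had 202 and 148 CPM after irradiation and 49.2 and 46.1 CPM in solvent (1.69 ± 0.27, adjusted p = 0.02). For all of these the lower irradiated library lay above the higher solvent library, which choosing called genes largely fixes.

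SGK1 (chromosome 6, 134169246 to 134318112) had 11.7 and 7.95 CPM after irradiation and 2.16 and 2.05 CPM in solvent (1.83 ± 0.25, adjusted p = 0.00549). HSPA1B (chromosome 6, 31827735 to 31830255) had 97.5 and 82.5 CPM after irradiation and 17.6 and 14.4 CPM in solvent (2.30 ± 0.43, adjusted p = 0.0294). HSPA1A, its near-identical neighbour with which reads may be shared, was at 1.97 ± 0.42 (adjusted p = 0.0429). Of 26 heat shock chaperone genes these 2 rose and 0 fell, and the list median was 0.61. Over the solvent mean, the list stood at 0.70 and 0.53 after irradiation and at 0.48 and 0.72 after APR-246 alone. Its median difference for irradiation on top of APR-246 was 0.27. Including the GC slope, 14 rose and 2 fell, against 9.08% and 10.9% of all genes. Among the 14 were HSPA8, the constitutive relative, and HSPA2. The call of SGK1 held without Null solvent library 2 and was lost without any other, and those of BMP4, FGFR3, HSPA1B and HSPA1A were lost whichever of the 4 was left out.

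Among 18 genes of the BMP pathway 3 rose and 0 fell. Beside BMP4 these were BMP6, a second ligand (11.1 and 7.91 CPM after irradiation and 2.66 and 2.57 CPM in solvent), and ID2, a BMP target that blocks differentiation factors (42.0 and 26.1 CPM after irradiation and 10.3 and 8.07 CPM in solvent). Their log2 differences were 1.53 ± 0.32 for BMP6 (adjusted p = 0.0392) and 1.65 ± 0.29 for ID2 (adjusted p = 0.0231). ID1, another target, went the other way, at -0.68 and called lower with the GC slope. WNT11, a ligand of non-canonical WNT signalling (4.75 and 3.37 CPM after irradiation and 0.270 and 0.642 CPM in solvent), rose by 2.15 ± 0.39 (adjusted p = 0.0294). Of 20 WNT targets 0 were called, yet AXIN2, the feedback inhibitor of the pathway, was at 2.57 ± 0.57 (adjusted p = 0.0516) and the transcription factor SP5 at 3.19 ± 0.94 (adjusted p = 0.127). SP5 had 14.2 and 19.6 CPM after irradiation and 0.899 and 1.60 CPM in solvent. In the fit with the GC slope 8 of the 20 rose and 1, MYC, fell, against 9.08% and 10.9% of all genes. Over the solvent mean, the WNT target list stood at 0.41 and 0.38 after irradiation and at 0.55 and 0.33 after APR-246 alone. Its median difference for irradiation on top of APR-246 was 0.08. The calls of BMP6, ID2 and WNT11 were each lost when any 1 of the 4 libraries was left out.

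Keratins split. KRT6A (chromosome 12, 52487174 to 52493257), a keratin of activated squamous epithelium, had 4.24 and 5.47 CPM after irradiation and 0.468 and 0.989 CPM in solvent (2.03 ± 0.39, adjusted p = 0.0294). Its paralogue KRT6B was at 1.01 ± 0.19 (adjusted p = 0.0294), and the similar sequences may share reads. These 2 of 17 keratins rose and 0 fell. With the GC slope 4 rose and 4 fell, against 9.08% and 10.9% of all genes. Among those that fell were KRT80 (50.6 and 64.5 CPM after irradiation and 196 and 170 CPM in solvent) and KRT18, a keratin of simple epithelium. The remaining genes among the 12 highest of at least 1 CPM were ZCCHC12 at 2.17, SRPX2 at 2.01, MEX3B, an RNA-binding protein, at 1.96, and NKX2-1, a transcription factor of lung and thyroid, at 1.87. ZCCHC12 had 8.49 and 5.60 CPM after irradiation and 0.791 and 1.25 CPM in solvent. NKX2-1 had 4.73 and 2.23 CPM after irradiation and 0.486 and 0.451 CPM in solvent. FOS (1.19), the histone gene H2BC4 (1.42), CRISPLD2 (1.30), CASTOR2 (1.34) and KCNS3 (1.67) rose too. The calls of this paragraph were each lost when any 1 of the 4 libraries was left out.

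**Figure D2:**
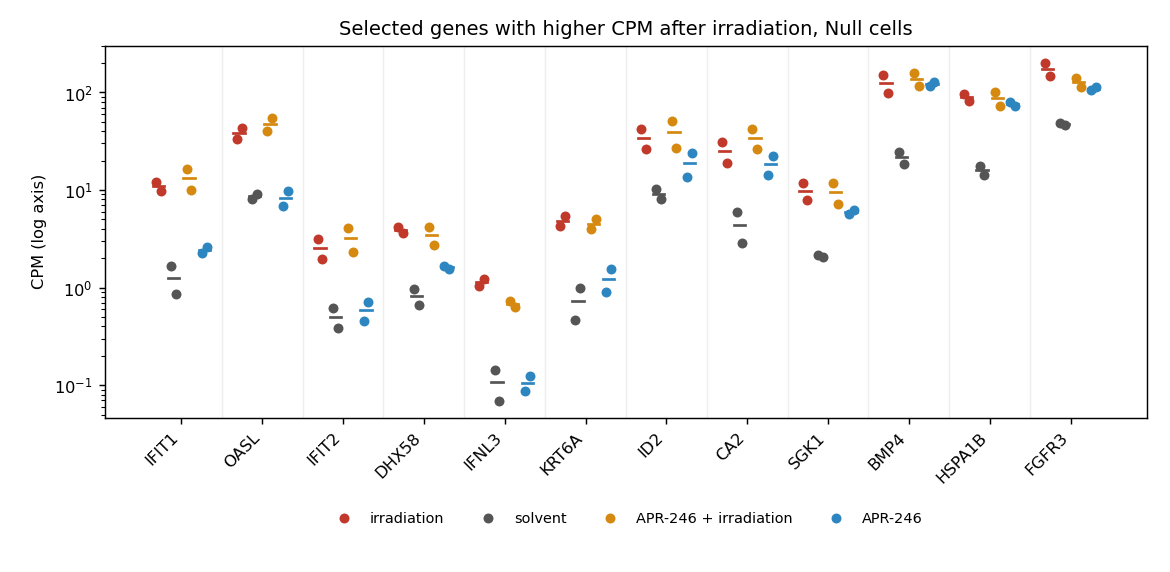
CPM (log axis) of 12 genes in the 8 Null libraries, each point a library and each bar the mean of its group. For each gene both irradiated libraries lie above both solvent libraries, which the choice of genes called higher largely fixes. OASL was not called in the main test.

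Genes of the integrated stress response were lower after irradiation than in solvent, and their list was also below solvent after APR-246 alone. DDIT4, an inhibitor of mTORC1, STC2, a secreted glycoprotein, PSAT1 of serine synthesis, the arginine transporter SLC7A1, the glycyl-tRNA synthetase GARS1, and the secreted factors INHBE and FGF21 fell, as did the stress regulator NUPR1. DDIT4 (ENSG00000168209, chromosome 10, 72273920 to 72276036) had 67.8 and 48.7 CPM after irradiation and 559 and 389 CPM in solvent, a log2 difference of -3.17 ± 0.51 (adjusted p = 0.02). PSAT1 (chromosome 9, 78297143 to 78330093) had 101 and 79.7 CPM after irradiation and 469 and 319 CPM in solvent (-2.26 ± 0.49, adjusted p = 0.0469). FGF21 (chromosome 19, 48755559 to 48758333) had 0.245 and 0.249 CPM after irradiation and 3.15 and 4.68 CPM in solvent (-2.68 ± 0.51, adjusted p = 0.0294). In all 3 genes the solvent libraries stood apart from the irradiated ones by more than their own spread, which choosing called genes largely fixes.

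STC2 was at -2.97 ± 0.64 (adjusted p = 0.0465), INHBE at -2.91 ± 0.54 (adjusted p = 0.0294) and NUPR1 at -2.07 ± 0.39 (adjusted p = 0.0294). SLC7A1 was at -1.91 ± 0.36 (adjusted p = 0.0294) and GARS1 at -1.61 ± 0.33 (adjusted p = 0.035). These are the 8 of 40 list members that fell, and 0 rose. The list median was -1.66 against 0.00 over all genes, and 39 of the 40 members were below 0. In the fit with the GC slope 38 fell, 15 of which kept that call without each library in turn. Over the solvent mean, the list stood at -1.87 and -1.72 after irradiation and at -1.23 and -1.59 after APR-246 alone. Its median difference for irradiation on top of APR-246 was -0.18. CHAC1 (chromosome 15, 40952962 to 40956519), which breaks down glutathione, had 28.6 and 32.6 CPM after irradiation and 257 and 262 CPM in solvent. It was at -3.22 ± 0.79, with an adjusted p of 0.0695 in the main test and 0.0157 with the GC slope. ATF4 itself was at -1.47 ± 0.37 (adjusted p = 0.0751) and fell with the GC slope (-1.5 ± 0.28, adjusted p = 0.00149), while DDIT3, the death-related partner CHOP, was called in neither fit (-1.85 ± 0.81, adjusted p = 0.365). The calls of the 8 genes were each lost when any 1 of the 4 libraries was left out. DDIT4 and GARS1, in the fit with the GC slope, kept theirs in all 4 cases, and STC2 and CHAC1 in none.

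The element that ATF4 with a C/EBP partner is known to bind was searched as TGATGNAA in the same promoters, on both strands. It occurs in 13 of the 33 tested list members with a listed promoter (39.4%), in 2.85% of all tested genes with a promoter and in 3.62% of all promoters. The promoters of DDIT4, STC2 and PSAT1 do not hold these letters. The windows for CHAC1 (chr15:40953226-40953305, plus strand) and FGF21 (chr19:48755434-48755513, plus strand), the list members with the largest and the fifth largest difference, are shown with the match in capitals, on the opposite strand in both.
CHAC1: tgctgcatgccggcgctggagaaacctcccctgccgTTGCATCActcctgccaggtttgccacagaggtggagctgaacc
FGF21: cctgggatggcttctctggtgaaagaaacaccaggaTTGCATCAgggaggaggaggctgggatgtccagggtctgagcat

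Other genes of protein synthesis were called in small number. Of 20 cytosolic tRNA synthetase genes 1 fell (GARS1, also a member of the ATF4 list), with a median of -0.88, and 14 fell with the GC slope. Over the solvent mean, this list stood at -0.83 and -1.05 after irradiation and at -0.55 and -0.50 after APR-246 alone. Its median difference for irradiation on top of APR-246 was -0.27. Of 18 hosts of small nucleolar RNAs 2 fell, SNHG8 (34.4 and 22.7 CPM after irradiation and 101 and 79.3 CPM in solvent) and EPB41L4A-AS1 (22.2 and 15 CPM after irradiation and 74.4 and 47.3 CPM in solvent). They were at -1.82 ± 0.36 (adjusted p = 0.032) and -1.83 ± 0.40 (adjusted p = 0.0461). The host list stood at -0.64 and -0.87 over the solvent mean after irradiation and at -0.87 and -1.01 after APR-246 alone. Its median difference for irradiation on top of APR-246 was -0.13. EPB41L4A-AS1 is antisense to another gene, and the strand used in counting is not given in the sources used here. Of 45 cytosolic ribosomal protein genes 0 were called, though 45 of 45 lay below 0, with a median of -0.42 (-0.82 to -0.02 without 1 library). With the GC slope 35 fell, 6 of which kept that call without each library. Their level followed the library as well as the group: the list's median stood at -0.77 and -0.11 after irradiation and at -0.39 and 0.39 in solvent, relative to the solvent mean. After APR-246 alone the list stood at -0.13 and -0.46, and its median difference for irradiation on top of APR-246 was -0.02.

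Among genes outside the list that fell in the main test and averaged at least 1 CPM, TSC22D3, a glucocorticoid-induced leucine zipper protein, and IL21R, a cytokine receptor, were furthest below 0. TSC22D3 (chromosome X, 107713221 to 107777342) had 24.7 and 14.1 CPM after irradiation and 132 and 113 CPM in solvent (-2.84 ± 0.44, adjusted p = 0.0181). IL21R (chromosome 16, 27402162 to 27452042) had 1.83 and 1.89 CPM after irradiation and 10.2 and 9.87 CPM in solvent (-2.30 ± 0.38, adjusted p = 0.02). AKNA fell by 2.24 on the log2 scale, ARHGEF2, a microtubule-bound activator of RhoA, by 2.16, the calcium pump ATP2C2 by 2.05 and the adhesion receptor ADGRG1 by 2.04. The lincRNA ENSG00000231977 (chromosome 20, 63166797 to 63180903) had 0.227 and 0.196 CPM after irradiation and 2.39 and 1.65 CPM in solvent (-1.93 ± 0.23, adjusted p = 0.00285). PHLDA1, a feedback gene of growth factor signalling, had 281 and 183 CPM after irradiation and 730 and 490 CPM in solvent and fell by 1.55. CFAP92 at -1.88, MICAL2 at -1.72, ZBED3 at -1.62 and IDNK at -1.61 were called by all 3 tests. The glucocorticoid-responsive list did not move one way: SGK1 and CRISPLD2 rose and TSC22D3 fell, and its 13 genes had a median of -0.32. Apart from ENSG00000231977, the calls of this paragraph were each lost when any 1 of the 4 libraries was left out, except that of SGK1, which held without Null solvent library 2. KLHDC7B was the gene furthest below 0 among those called with the GC slope, with 2.06 and 3.35 CPM after irradiation and 68.2 and 66.0 CPM in solvent (-4.57 ± 1.25, adjusted p = 0.102, and 0.0396 with the GC slope). UPP1, a uridine phosphorylase, had 85.2 and 107 CPM after irradiation and 782 and 788 CPM in solvent (-3.19 ± 0.85, adjusted p = 0.0944, and 0.0217 with the GC slope). Both lost the second call whichever of the 4 libraries was left out.

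**Figure D3:**
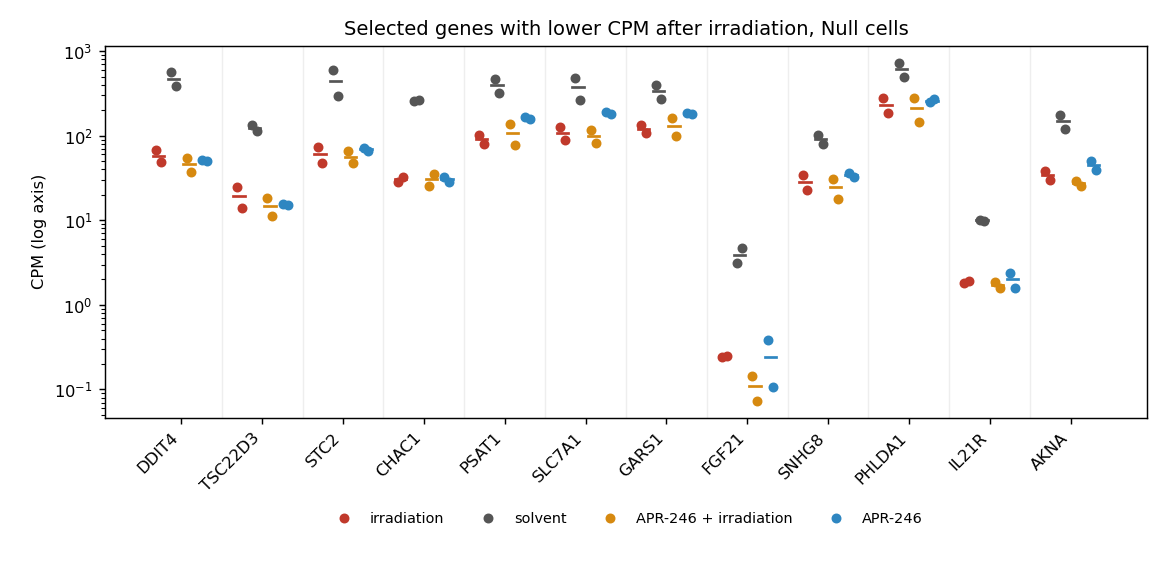
CPM (log axis) of 12 genes in the 8 Null libraries, each point a library and each bar the mean of its group. For each gene both irradiated libraries lie below both solvent libraries, which the choice of genes called lower largely fixes. The APR-246 plus irradiation and APR-246 libraries also lie below solvent. They are set against the same solvent libraries that entered that choice. CHAC1 was not called in the main test.

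The 39 tested targets of p53 had a median of -0.07, against 0.00 over all genes. In the main test 0 rose and 0 fell. That test called only 0.411% of all genes higher and 0.266% lower, so 0 calls among 39 says little of the list. With the GC slope those shares were 9.08% and 10.9%. CDKN1A (ENSG00000124762, chromosome 6, 36676460 to 36687339), the cell cycle inhibitor, had 281 and 302 CPM after irradiation and 348 and 357 CPM in solvent (-0.43 ± 0.40, adjusted p = 0.814, and -0.52 ± 0.16 with the GC slope, adjusted p = 0.0205). MDM2, the ubiquitin ligase of p53, had 42.3 and 17.4 CPM after irradiation and 44.7 and 14.7 CPM in solvent, so that the groups overlapped and the first library of each stood far above the second. Including the GC slope, 6 targets rose and 13 fell, and 1 of each kept that call without each library. APAF1, which assembles the apoptosome, was at 1.39 in the main test and rose with the GC slope. SESN2, TNFRSF10B and GDF15, which stress pathways outside p53 also induce, were at -2.24, -1.60 and -1.59 and fell with the GC slope.

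Genes of division lay mostly above 0 at 72 hours after irradiation, with 0 calls in the main test. APR-246 alone also lay above solvent. Its G2/M list medians over the solvent mean were 0.44 and 0.55, beside 0.59 and 0.37 after irradiation. For replication genes they were 0.67 and 0.75, beside 0.28 and 0.61. The median differences for irradiation on top of APR-246 were 0.12 for G2/M and 0.13 for replication. Of 47 genes of G2/M and the spindle 42 lay above 0, with a median of 0.48, and 21 rose and 1 fell with the GC slope. Of the 21, 5 kept that call without each library. KIF20A, a kinesin of cytokinesis, had 97 and 64.3 CPM after irradiation and 29.7 and 21.6 CPM in solvent (1.47 ± 0.37, adjusted p = 0.0734, and 1.41 ± 0.28 with the GC slope, adjusted p = 0.00272). Of 38 replication genes 31 lay above 0, the median was 0.48 (0.20 to 0.61 without 1 library), and 10 rose and 1 fell with the GC slope. PCNA, the polymerase clamp, was at 1.20 ± 0.34 (adjusted p = 0.108). Of 7 cyclin-dependent kinase inhibitor genes 3 rose and 1 fell with the GC slope. CDKN2C, which restrains CDK4 and CDK6, had 35.7 and 29.6 CPM after irradiation and 6.10 and 7.86 CPM in solvent. CDKN1C had 142 and 229 CPM after irradiation and 28.4 and 63.8 CPM in solvent. Both rose with the GC slope (1.88 ± 0.36 and 1.62 ± 0.26) and were not called in the main test. The recombination and end-joining lists, which repair the breaks that radiation makes, had medians of 0.13 and 0.00 with 0 calls in the main test. The GC slope fit called more, and 6 of 34 recombination genes rose and 2 fell, and 5 of 26 end-joining genes rose and 2 fell. Over all genes that fit called 9.08% higher and 10.9% lower.

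Other lists had 0 calls in the main test, which called 0.411% of all genes higher and 0.266% lower. With the GC slope those shares were 9.08% and 10.9%. Cholesterol synthesis genes had a median of 0.43 (0.07 to 0.80 without 1 library), lysosome and autophagy genes of 0.31, EGF receptor family genes of -0.58 and endoplasmic reticulum chaperones of -0.24. After APR-246 alone, over the solvent mean, cholesterol synthesis genes stood at 0.56 and 0.48 and lysosome and autophagy genes at 0.04 and 0.04. EGF receptor family genes stood there at -0.26 and -0.36 and endoplasmic reticulum chaperones at -0.23 and -0.18. For irradiation on top of APR-246 their medians were 0.05, 0.26, -0.08 and -0.18 in that order. Including the GC slope, 0 of 15 EGF receptor family genes rose and 7 fell, 2 of 23 endoplasmic reticulum chaperones rose and 10 fell, 0 of 29 ribosome biogenesis genes rose and 10 fell, and 0 of 31 NRF2, thioredoxin and glutathione genes rose and 10 fell. HSPA5, the main chaperone of the endoplasmic reticulum (1284 and 745 CPM after irradiation and 3787 and 1684 CPM in solvent), fell with the GC slope, and NEU1, the lysosomal sialidase (74.9 and 79.7 CPM after irradiation and 25.5 and 32.0 CPM in solvent), rose. Mitochondrially encoded mRNAs had a median of -0.01 and 0 calls in either fit.

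**Figure D4:**
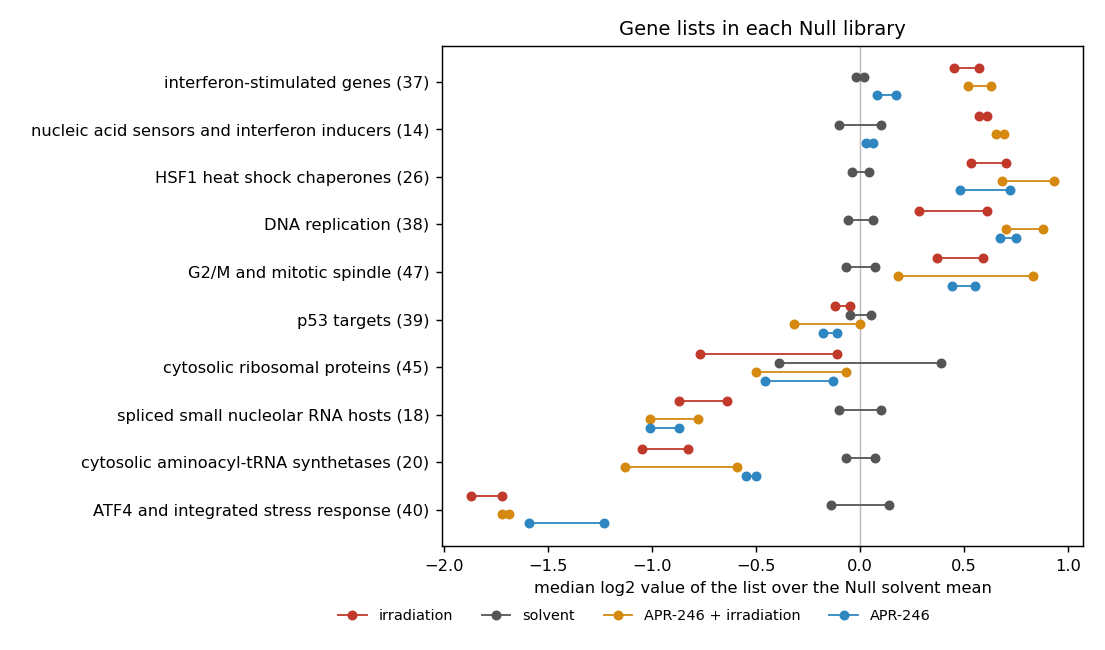
Median log2 value of 10 gene lists in each Null library relative to the mean of the Null solvent libraries (horizontal axis), with the number of tested genes in brackets and a line joining the libraries of a group. Interferon-stimulated genes lie at 0.57 and 0.45 after irradiation and at 0.08 and 0.17 after APR-246, while ATF4 genes lie at -1.87 and -1.72 after irradiation and at -1.23 and -1.59 after APR-246.

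The same dose was also given on top of APR-246, and the libraries of APR-246 plus irradiation and of APR-246 share none with the comparison above. There 5 genes were higher and 0 lower (0.0242% of those tested), and 3 of the 5 were among the 85: IFIT1, IFNL2 and KRT6B. IFIT1 had 16.4 and 9.99 CPM with APR-246 plus irradiation and 2.28 and 2.60 CPM with APR-246 (2.29 ± 0.25, adjusted p = 0.00149). The other two were the cobalamin carrier TCN1 (1.44, adjusted p = 0.0497) and ENSG00000228401. The fit with the GC slope called 273 genes higher (1.32%) and 274 lower (1.33%), and 25 of the 85 and 4 of the 55 were among them in their direction. The count of 5 was 17 without APR-246 plus irradiation library 1, 1 without its library 2, and 0 without either APR-246 library.

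Of the 85 genes higher without APR-246, 79 (92.9%) lay above 0 on top of it, against 48.6% of all genes, with a median of 0.52 beside 1.39 without APR-246. Of the 55 lower genes 41 (74.5%) lay below 0, against 51.2% of all genes, with a median of -0.17 beside -1.55. The antiviral genes had values of similar size in both settings. The median of the interferon list was 0.52 on top of APR-246 and 0.57 without it, and 13 of 37 rose with the GC slope. OASL had 40 and 54.5 CPM with APR-246 plus irradiation and 6.92 and 9.70 CPM with APR-246 (2.29 with the GC slope, adjusted p = 9.95e-08). KRT6A (4.01 and 5.01 CPM with APR-246 plus irradiation and 0.900 and 1.54 CPM with APR-246) rose there with the GC slope, as did ID2, CA2 and FOS.

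BMP4 and DDIT4 were near 0 on top of APR-246. BMP4 had 158 and 117 CPM with APR-246 plus irradiation and 116 and 128 CPM with APR-246, and DDIT4 had 54.6 and 37.5 CPM with APR-246 plus irradiation and 51.3 and 50.8 CPM with APR-246. For both genes the APR-246 libraries were already near the irradiated level of the comparison with solvent. The ATF4 list had a median of -0.18 on top of APR-246, with 1 of 40 members lower with the GC slope. The difference between the effect of irradiation without and with APR-246 was tested for every gene. The main limma test called 0 genes, with 946 of 20668 at an unadjusted p below 0.05. That share is below 0.05, the share expected with no differences at all. DESeq2 called 26 genes and edgeR 0 genes. In the fit with the GC slope 711 differed (3.44%), 30 of the 85 and 26 of the 55 among them. The 85 and 55 were chosen for their size without APR-246, which enters this difference, so these counts and the smaller medians on top of APR-246 are partly fixed by that choice. In that fit FGFR3 differed by 1.40 (adjusted p = 0.00423), BMP6 by 2.20 (adjusted p = 0.00587), BMP4 by 2.10 (adjusted p = 0.0485), TSC22D3 by -2.83 (adjusted p = 0.0374) and IL21R by -2.22 (adjusted p = 0.0109). DDIT4 differed by -3.10 (adjusted p = 0.0549) and IFIT1 by 0.35 (adjusted p = 0.536), which were not called. Of the ATF4 list 2 of 40 members differed.

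**Figure D5:**
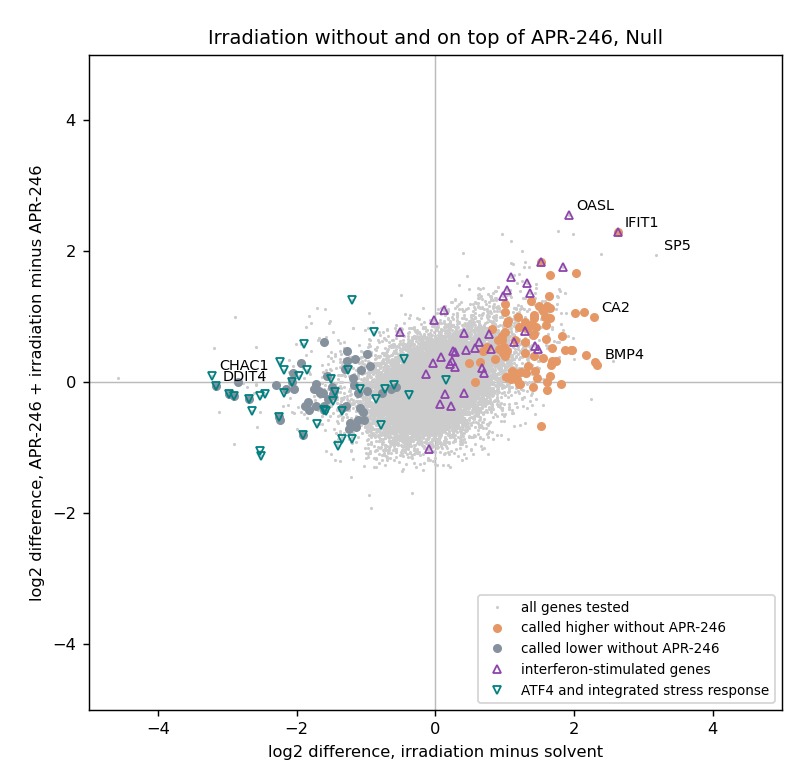
Log2 difference of each gene for irradiation minus solvent (horizontal axis) and for APR-246 plus irradiation minus APR-246 (vertical axis) in Null cells, which share no library. IFIT1 (2.63 and 2.29) and OASL (1.93 and 2.55) lie far from 0 on both axes, while DDIT4 (-3.17 and -0.06) and BMP4 (2.34 and 0.27) are far from 0 on the horizontal axis only.

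Set directly against APR-246 alone, irradiation gave 2 higher genes and 0 lower (0.00968%). IFIT1 was at 1.96 and IFNL2 at 1.13, which had 0.751 and 0.535 CPM after irradiation and 0 and 0.0358 CPM with APR-246. Both calls were each lost when any 1 of the 4 libraries was left out.

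The same contrast in the other lines gave values of the same sign for the leading genes. IFIT1 differed by 2.56 in WT (adjusted p = 6.44e-05) and by 1.36 in Mutant (adjusted p = 0.0518). DDIT4 differed by -2.73 in WT (adjusted p = 0.0151) and by -2.45 in Mutant (adjusted p = 0.0617), and BMP4 by 1.75 in WT and 1.71 in Mutant. The ATF4 list had medians of -1.74 in WT and -1.42 in Mutant, and the interferon list of 0.63 in WT and 0.30 in Mutant. The test of Null minus WT called 6 genes (0.029%), each with a lower response in Null: WFDC2, GGT6, RIMS4, LY6D, FRMPD2 and SPATA18. The number was 31 without WT irradiation library 1 and 0 without Null irradiation library 2 or WT solvent library 2, and edgeR called 0 genes. In the fit with the GC slope 229 genes were called (1.11%), 59 with a higher and 170 with a lower response in Null. Among them were 18 of the 39 p53 targets, each lower in Null minus WT, 0 of 37 interferon-stimulated genes and 0 of 40 ATF4 genes. CDKN1A stood at 292 ± 15 CPM after irradiation and 353 ± 6.71 CPM in solvent in Null, and at 2207 ± 64.2 CPM after irradiation and 545 ± 52.1 CPM in solvent in WT (SD, n = 2 each). In the same fit 6 of 47 G2/M genes responded more in Null and 0 less, against 59 and 170 of all 20668 genes. The list medians in the main test were 0.48 in Null and -0.19 in WT. MYC fell in Null with the GC slope and differed from WT by -1.49 (adjusted p = 0.00347). Null minus Mutant called 0 genes in the main limma test and 0 by edgeR and by DESeq2. In the limma test 412 of 20668 genes had an unadjusted p below 0.05, a share below the 0.05 expected with no differences.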

How the data were processed

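Per the submitters' processing notes, reads were checked with FastQC, aligned with STAR and counted with featureCounts from Subread on GRCh38.p13, and versions are not given in the sources used here. The deposited values are CPM per gene and library, made by the authors. Of 60675 gene IDs, 60419 have a symbol, and coordinates are those of GENCODE 29 on GRCh38. CPM steps gave whole reads for 100% of values within 0.05 read, and the 24 libraries held 53184139 to 58058729 reads. Floors of 3 reads, covering counting error only, were 0.05204 to 0.05396 CPM in the 4 libraries compared. There 75.7 to 79.6% of recovered values from 2 to 9 were even, so both mates of a pair may often count as a read each, and 3 reads can be fewer fragments.

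The design for CPM was kept: limma 3.58.1 (trend, robust, R 4.3.3) on log2(CPM + 0.5) after TMM scaling, over all 24 libraries and 12 groups with 12 residual degrees of freedom, for the 20668 genes passing edgeR's expression filter at a minimum count of 10. An adjusted p is Benjamini-Hochberg over those genes, and calls have one below 0.05. Tests are two-sided, and the median SE was 0.32. The GC slope of each library, fitted over 10736 genes, was a covariate in a second fit. Alternatives were edgeR 4.0.16 (quasi-likelihood) and DESeq2 1.42.0 on the recovered reads, other scaling, filters and pseudocounts, fewer groups, and leaving out each library. The scripts were tested on simulated data. The comparison of irradiation without and with APR-246 was added after seeing the data.

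Named genes are the 12 highest and 12 lowest calls of at least 1 CPM, called list members, the 2 members of each list with the largest difference, CDKN1A and MDM2, the 5 highest and 5 lowest calls of each other comparison, the 10 highest and 10 lowest called by limma, the GC slope fit and edgeR, and calls kept without each library. Members and lists were chosen with earlier results of these data known. Genes named outside this rule were chosen after their values were seen. A gene that the rule also names is not reported here.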

Additional observations from a re-analysis of the deposited data

Results flagged for a closer look

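The response to irradiation differed between Null and WT cells, by a test of the difference itself, for 6 genes in the main limma test. WFDC2 differed by -2.22 on the log2 scale, GGT6 by -2.04, RIMS4 by -1.81, LY6D by -1.5, FRMPD2 by -1.42 and SPATA18, a p53-induced gene of mitochondrial quality control, by -1.29. WFDC2 averaged 0.142 CPM after irradiation in Null cells and 3.95 CPM in irradiated WT cells, and FRMPD2 averaged 0 CPM after irradiation in Null cells and 1.23 CPM in irradiated WT cells. These are irradiated levels only, while the test also uses the solvent libraries of both lines. In the irradiated Null libraries 3 reads are 0.0524 and 0.05346 CPM, so both Null values are low.

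Including the GC slope, the differences furthest from 0 were those of SUSD2 at -2.72, ZBED2 at -2.63, the protease KLK5 at -2.41, CDKN1A at -2.31 and TP53I3, a p53 target, at -2.23. On the other side stood ETV1, a transcription factor, at 1.65, ATP2B1-AS1, an antisense transcript whose reads may belong to its partner, at 1.63 and the kinase LCK at 1.62. SPARC, a matrix protein, differed between Null and Mutant cells by 2.03 in the same fit. The number of genes differing between Null and WT was 31 without WT irradiation library 1 and 0 without Null irradiation library 2.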

How the results depend on the processing

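The 140 genes called for irradiation in Null became 0 with the 4 libraries fitted alone (1514 at an unadjusted p below 0.05), 15 with the 8 Null libraries, 82 with a pseudocount of 0.1, 47 with edgeR, 733 with DESeq2, 974 after a lowess correction on GC and 4134 with the GC slope. Without 1 library they were 1 to 12, and with the GC slope 1528 and 2300 without Null irradiation library 1 or 2, and 2309 and 2049 without Null solvent library 1 or 2. Null minus WT called 6 genes, 20 with DESeq2, 229 with the GC slope and 0 with edgeR, and 0 to 31 without 1 library. Null minus Mutant called 0, 1 with the GC slope and 0 to 1 without 1 library. Irradiation on top of APR-246 called 5, 49 with DESeq2, 547 with the GC slope, 1 with edgeR and 0 to 17 without 1 library. Irradiation minus APR-246 called 2, 7 with DESeq2, 181 with the GC slope, 1 with edgeR and 0 without 1 library. Irradiation without minus with APR-246 called 0, 26 with DESeq2, 711 with the GC slope and 0 to 1 without 1 library. The cause was not tested.

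With the replicate number as a block these counts were 1302, 20, 0, 103, 9 and 2 in the same order, and with block and GC slope 4448, 227, 0, 931, 185 and 766. Deviations of same-numbered libraries correlated above 0.1 in 55 of 66 group pairs (0.93 for Null irradiation and Null solvent), and all 11 exceptions involve Null APR-246. No label says that the numbers pair libraries. Under the block 61 of 105 named genes missed by the main test were called, among them AXIN2 (adjusted p = 0.0069), CHAC1 (0.0133), CDKN2C (0.004), CDKN1C (0.0227), OASL (0.000703), SP5 (0.000864), UPP1 (0.019), KLHDC7B (0.026) and KIF20A (0.00726). Of these 9, all but CDKN1C were also called by DESeq2. With the numbers of the Null APR-246 libraries crossed, chosen after seeing the data, the last 3 counts were 245, 37 and 6.

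Of 48 named called genes all 48 kept their call with the GC slope, DESeq2 and the block, 26 with edgeR, 27 without TMM scaling, 34 with a pseudocount of 0.1, and 1 to 4 without 1 library. Signs turned only for genes not called. Without 1 library ACTA2 ranged from -0.30 to 0.76, ATM from -1.55 to 0.35, CD37 from -0.82 to 0.15, ENSG00000264112 from -2.26 to 0.40, MDM2 from -0.59 to 0.44, MT2A from -0.95 to 0.31, PSMB9 from -0.01 to 1.27 and SUSD2 from -0.73 to 0.11. With the GC slope and without 1 library ACTA2 turned to -0.06 and -0.09 and MDM2 to 0.05, 0.09, 0.11 and 0.14. MDM2 was at 0.08 without TMM scaling, 0.10 with the GC slope, 0.05 after lowess and 0.11 with block and GC slope. Blood markers gave no median with a mean of at least 1 CPM. Depth limits genes near 3 reads, such as IFNL2 in solvent.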

Other observations

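The following 6 genes, called higher after irradiation in Null cells, lie outside the rule for named genes and were chosen after their values were seen. GATA6, a transcription factor of gut endoderm, had 23.3 and 15.2 CPM after irradiation and 6.58 and 4.22 CPM in solvent (1.60 ± 0.28, adjusted p = 0.0257). TBX3, a T-box repressor, had 27.1 and 15.8 CPM after irradiation and 8.87 and 5.07 CPM in solvent (1.41 ± 0.27, adjusted p = 0.0305). HOXB6 and HOXA10, homeobox genes of body position, were at 1.31 ± 0.25 (adjusted p = 0.0294) and 1.11 ± 0.22 (adjusted p = 0.035). NES, the intermediate filament nestin, was at 1.65 ± 0.30 (adjusted p = 0.0294) and PRAME, a cancer-testis antigen, at 1.44 ± 0.28 (adjusted p = 0.032). All 6 calls were lost when any 1 of the 4 libraries was left out, and kept in each of those cases with the GC slope.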
